A study of Mus musculus with 6 samples.

Results

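The interleukin-1 family measured here comprised 8 genes: the agonists Il1a, Il1b and Il18, the antagonists Il1rn and Il18bp, and the receptor chains Il1r1, Il1r2 and Il1rap. They were chosen by gene symbol, and all 8 were found among the 40213 genes of the deposited count files. Of the 8, 7 passed the filter on low counts and were tested; Il1r2 did not. Total RNA came from bone marrow-derived macrophages, which were grown from marrow cells of C57BL/6 mice for 4 days in 25 ng/ml macrophage colony-stimulating factor and 10% serum. After plating, 3 samples received polystyrene micro- and nanoplastic particles (MNP, 50 µg, volume and particle size not given in the sources used here) for 24 h, and 3 control samples received none. The labels name no microbial stimulus. They leave unsaid whether the replicates were different mice or different cultures, so a p-value here speaks to the spread of these 6 samples only, and that spread may be technical.

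Interleukin-1 alpha and beta are alarm cytokines that bind the same receptor, IL1R1, which recruits the accessory chain IL1RAP and signals through MYD88 and IRAK kinases to NF-kB. The pathway is braked at several levels. IL1RN, the receptor antagonist, occupies IL1R1 without signalling, IL1R2 is a decoy receptor without a signalling domain, and IL18BP is a soluble protein that captures interleukin-18. In resting macrophages the Il1b transcript is scarce and is induced by microbial products, whereas Il18 is transcribed at a basal level. Interleukin-1 beta and interleukin-18 are made as inactive precursors and cut by caspase-1 in inflammasomes, so a transcript level says nothing on how much active cytokine is released.

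After MNP exposure, 3 of the 7 tested members were lower and the other 4 did not pass the test. Il1rn fell 2.16-fold, Il1b 2.69-fold and Il18 1.74-fold, while Il1a, Il18bp, Il1rap and Il1r1 did not pass. Genes lower in MNP at an edgeR adjusted p under 0.05 made up 8.35% of the 12893 genes tested, and genes changed in either direction 17.5%. With so few members, and members chosen with earlier results known, the members' count is a description only. In each of the 3 genes that fell, every MNP library lay below every control, which held for 17.3% of all tested genes. RNA was measured in bulk, so fewer cells of a type and less RNA per cell cannot be told apart.

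Library totals ran from 20262859 to 23042146 counts, and 3 counts were worth 0.127 to 0.145 scaled CPM (counts relative to the library total times its TMM factor). The structural RNA Gm26917 took 1.02% of counts in MNP sample 1 and 0.251% to 0.444% elsewhere. Control 1 held a count for 24062 genes and controls 2 and 3 for 20935 and 20222, while the MNP libraries held 18240 to 18672, fewer than any control. All 10 macrophage markers were tested and were expressed, with summed levels of 18981 to 19691 scaled CPM without MNP and 16895 to 17932 with MNP. Lyz2, at a mean of 14753 scaled CPM in controls and 13140 in MNP samples, made up most of these sums. Of the 10 markers, 4 were lower (Adgre1, Fcgr1, Mertk and Lyz2, by 1.12-fold to 1.42-fold) at an edgeR adjusted p under 0.05 and the other 6 did not pass. Among those 6, Cd68 had a higher estimate just short of a call (log2 0.25, edgeR adjusted p = 0.0507), with overlapping groups. Cx3cr1 had a larger estimate (log2 0.49, edgeR adjusted p = 0.126), with every MNP library above every control. Of the 6, only Csf1r had a lower estimate (log2 -0.07). The median log2 fold change of the 10 markers was -0.02. The part of these marker changes in the members' decreases was not tested.

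The promoter windows of the genes that fell, and of Il1a, the neighbour of Il1b that did not pass, are shown because these members share a locus or a direction. RefSeq's table for GRCm38.p6 held all 8 members in 11 windows, from which the 250 bases before each transcription start are given, 5′ to 3′ on the gene's strand. The counts were made on GRCm39, so these coordinates apply to GRCm38.p6 only. Capitals mark matches, on either strand, to 7 motifs: the NF-kB consensus, the interferon-stimulated response element core GAAANNGAA, the gamma-activated site TTCNNNGAA, the AP-1 site TGANTCA, the antioxidant response element core TGACNNNGC, the PU.1 core GAGGAA and the TATA box TATAAA. No match of one motif overlapped a match of another in the printed windows.
Il1rn, chr2:24336610-24336859, plus strand: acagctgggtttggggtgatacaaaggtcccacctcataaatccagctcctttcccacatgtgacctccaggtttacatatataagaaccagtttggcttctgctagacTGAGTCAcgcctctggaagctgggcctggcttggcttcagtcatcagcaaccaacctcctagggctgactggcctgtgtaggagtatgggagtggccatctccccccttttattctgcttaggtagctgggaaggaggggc
Il1b, chr2:129371140-129371389, minus strand: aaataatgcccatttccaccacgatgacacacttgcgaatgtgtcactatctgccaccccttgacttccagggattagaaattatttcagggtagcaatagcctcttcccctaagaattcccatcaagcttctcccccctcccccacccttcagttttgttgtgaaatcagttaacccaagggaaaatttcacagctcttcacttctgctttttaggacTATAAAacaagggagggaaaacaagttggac
Il1a, chr2:129309973-129310222, minus strand: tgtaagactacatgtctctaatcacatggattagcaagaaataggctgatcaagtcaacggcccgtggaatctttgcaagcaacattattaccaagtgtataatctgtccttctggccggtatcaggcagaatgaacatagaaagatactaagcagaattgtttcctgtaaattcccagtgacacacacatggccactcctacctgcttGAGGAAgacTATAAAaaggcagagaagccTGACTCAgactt
Il18, chr9:50554450-50554699, plus strand: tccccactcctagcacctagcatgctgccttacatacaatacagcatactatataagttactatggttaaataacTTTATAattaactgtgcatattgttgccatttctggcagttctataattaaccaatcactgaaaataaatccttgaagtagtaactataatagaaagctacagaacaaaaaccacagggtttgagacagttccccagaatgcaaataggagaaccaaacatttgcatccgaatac

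Il1b and Il1a each held a TATA box, 31 to 26 and 32 to 27 bases before the start. A match at any position and on either strand was held by 12.4% of all 32851 promoter windows. The other shares of windows given here were counted in the same way. In Il18 the TATA box match lay on the opposite strand, 175 to 170 bases before the start. An AP-1 site stood 12 to 6 bases before the start of Il1a and 141 to 135 bases before the most upstream start of Il1rn, and 6.75% of all windows held one. Il1a also held a PU.1 core (23.3% of all windows). The 2 other windows of Il1rn, at starts further downstream, held no match. Neither the interferon-stimulated response element core (7.13% of all windows) nor the antioxidant response element core (10.2%) was found in any of the 11 member windows. The NF-kB consensus (3.9%) was matched once, in 1 window of Il1r1, and the gamma-activated site (7.02%) once, in Il1r2. These are letter matches in short windows, and no match says only that the letters are not there.

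**Figure D1:**
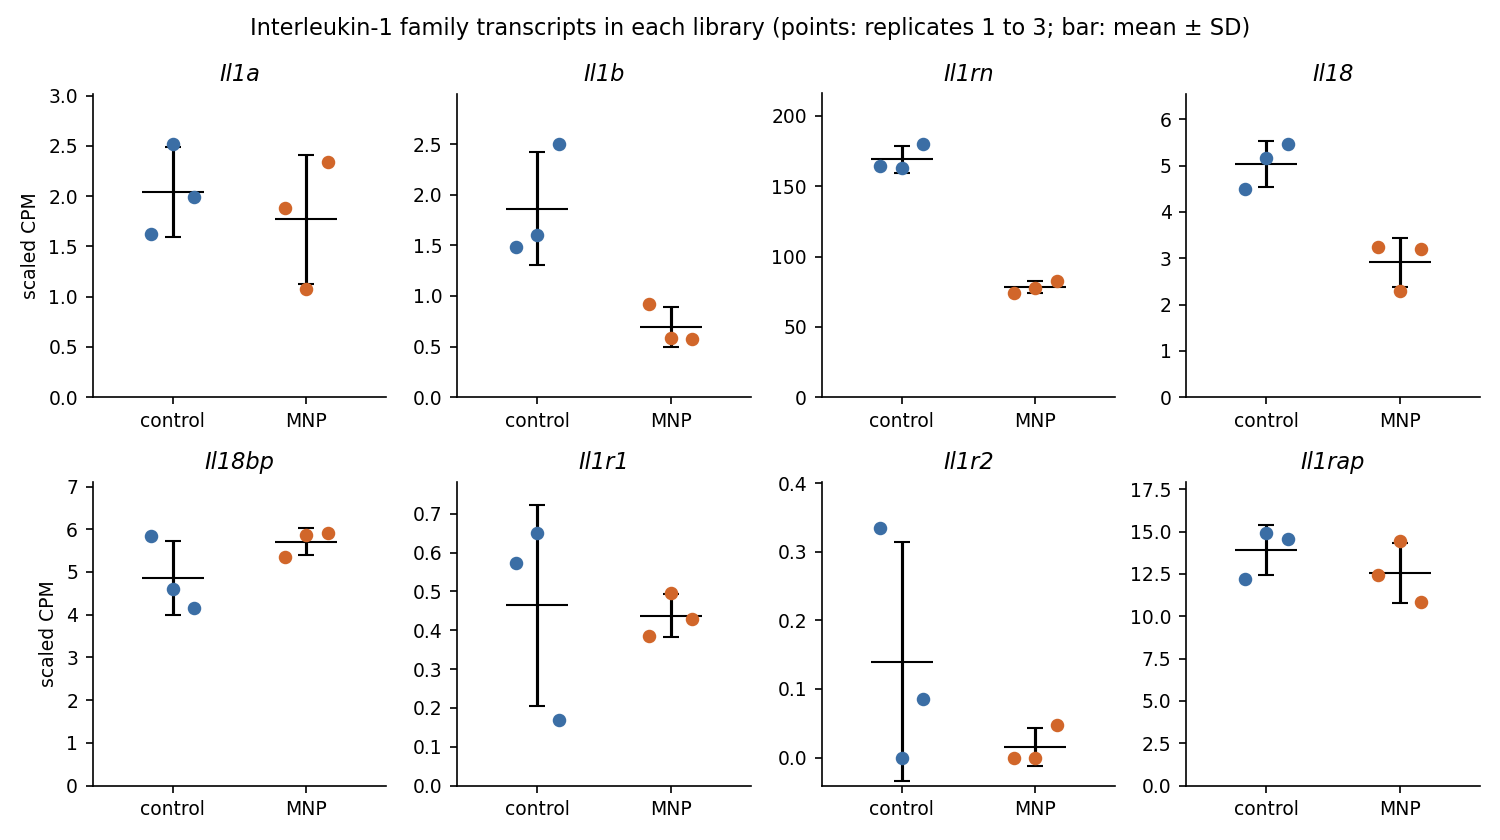
Scaled CPM of each of the 8 members (y axis, linear, a separate scale per gene) in the 3 control and 3 MNP libraries (points), with the mean ± SD as a bar. For Il1b, Il1rn and Il18 every MNP point lies below every control point, while the groups of the other 5 genes overlap.

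Per kilobase of exon, the antagonist Il1rn was by far the most abundant member. In controls its level was 30.5 ± 1.71 CPM per kilobase (SD, n = 3), followed by Il18 at 4.89 ± 0.483, Il18bp at 1.61 ± 0.287 and Il1rap at 1.22 ± 0.131. Il1a stood at 1.04 ± 0.227 and Il1b at 0.977 ± 0.291 CPM per kilobase, and Il1r1 and Il1r2 were both at 0.073. The control libraries of Il1rap and Il1a overlapped, as did those of Il1a and Il1b and of Il1r1 and Il1r2, so the order within these pairs was not larger than the spread. In MNP samples the 6 most abundant members kept their order, but Il1a, at 0.896 ± 0.323 CPM per kilobase, no longer overlapped Il1b, at 0.363 ± 0.102. Lengths are merged exons of a GRCm38 annotation matched by symbol, and all transcripts of a gene are counted together, so secreted and intracellular forms of Il1rn, or membrane and soluble forms of Il1rap, were not separated.

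Il1b encodes the secreted agonist that depends on the inflammasome. Its deposited counts were 31, 37 and 59 in controls 1 to 3 and 19, 13 and 12 in MNP samples 1 to 3. These correspond to 1.48, 1.61 and 2.50 scaled CPM in controls against 0.917, 0.586 and 0.573 in MNP samples. Control 3 was highest, and the 2 lowest values, MNP samples 2 and 3, were almost equal. Il1b was 2.69-fold lower (log2 fold change -1.43 ± 0.40 SE, 95% interval -2.30 to -0.56, edgeR adjusted p = 0.0264). The call was lost without control 2 (edgeR adjusted p = 0.0611), control 3 (0.132), MNP sample 2 (0.115) or MNP sample 3 (0.106), with log2 fold changes between -1.52 and -1.15 in these 4 fits. RefSeq places the antisense transcript Il1bos across the start of Il1b, and it had at most 4 counts in any library.

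Il1a, which encodes an agonist that is active without caspase-1 cleavage, lies beside Il1b on chromosome 2. It had 1.63, 2.52 and 1.99 scaled CPM in controls and 1.88, 1.08 and 2.34 in MNP samples. The groups overlapped, with control 2 highest and MNP sample 2 lowest. The log2 fold change was -0.22 ± 0.35 SE (95% interval -0.97 to 0.53, edgeR adjusted p = 0.728), an interval that still holds a decrease to 0.512 and an increase to 1.45 times the control level. Within each library, the count ratio of Il1a to Il1b was 1.10, 1.57 and 0.797 in controls and 2.05, 1.85 and 4.08 in MNP samples. Every MNP ratio exceeded every control ratio. By mean log2 ratio, with 0.5 added to each count, the ratio was 2.20-fold higher in MNP samples. The exact two-sided permutation p was 0.1, the smallest that 3 against 3 libraries allow (adjusted p = 0.2 over 4 ratios).

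Il18 encodes the precursor of interleukin-18. Its levels were 4.49, 5.17 and 5.46 scaled CPM in controls and 3.23, 2.30 and 3.20 in MNP samples. MNP sample 2 was lowest and the groups stood apart. Il18 was 1.74-fold lower (log2 fold change -0.80 ± 0.21 SE, 95% interval -1.25 to -0.34, edgeR adjusted p = 0.0194). The call was lost without control 2 (edgeR adjusted p = 0.0628), control 3 (0.0668) or MNP sample 2 (0.0874). Il18 shares its first bases with Bco2, a carotenoid-cleaving enzyme gene, whose levels were 0.669, 1.17 and 1.10 scaled CPM in controls and 0.531, 0.541 and 0.430 in MNP samples. Bco2 did not pass (log2 -0.97, edgeR adjusted p = 0.167), and without a stated strand setting reads in the shared stretch cannot be told apart.

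Il1rn, the receptor antagonist, was the member measured most precisely, with 11434 counts in the controls together and 4989 in the MNP samples. It had 164, 163 and 180 scaled CPM in controls and 74.3, 77.3 and 82.8 in MNP samples. The relative SD within groups was 5.61% and 5.52%, and the gap between groups was many times that spread. The log2 fold change was -1.11 ± 0.06 SE (95% interval -1.25 to -0.98, edgeR adjusted p = 4.83e-08), a fold between 1.97 and 2.38. Among the tested genes, 263 called genes fell further.

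**Figure D2:**
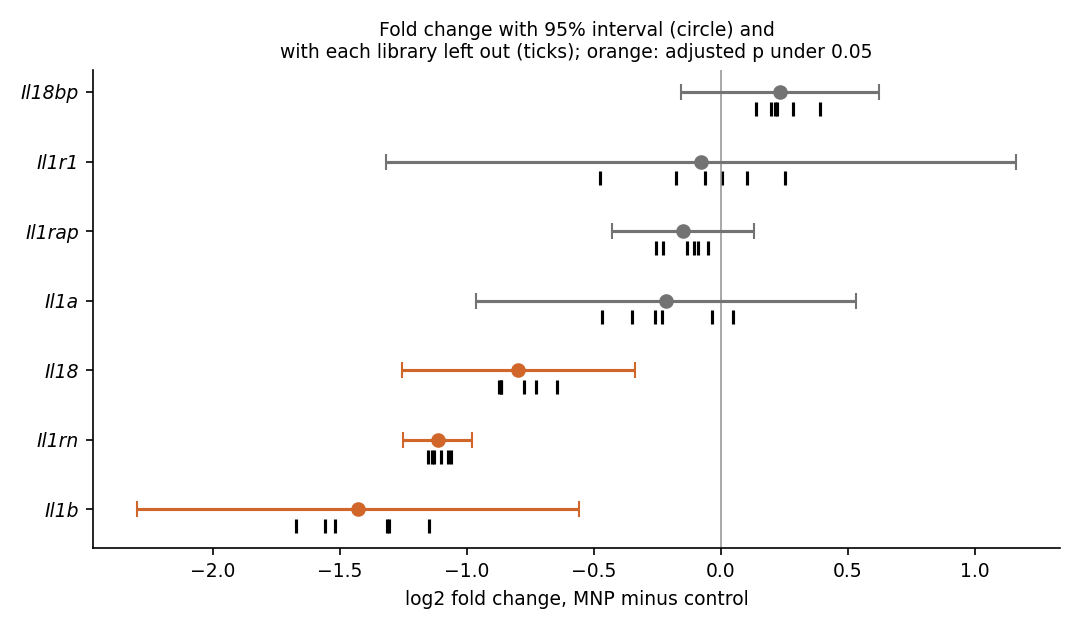
Log2 fold change of MNP minus control (x axis) for the 7 tested members, with circles for the estimate, bars for the 95% interval and ticks for the estimate with 1 library left out. The interval of Il1rn, -1.25 to -0.98, is the narrowest, that of Il1b runs from -2.30 to -0.56, and the intervals of Il1a, Il1rap, Il1r1 and Il18bp span 0.

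The agonist Il1b and the antagonist Il1rn were thus both lower, while the other agonist of their receptor, Il1a, did not pass. The ratio of Il1rn to Il1b showed no shift beyond the spread, with only 19, 13 and 12 Il1b counts in the MNP samples. The count ratio of Il1rn to Il1b was 111, 101 and 72.0 in controls and 81.0, 132 and 145 in MNP samples. MNP sample 1 fell within the control range and the other 2 above it. The mean ratio was 1.21-fold higher in MNP samples (exact two-sided permutation p = 0.4, adjusted p = 0.4 over 4 ratios). As each gene keeps its own length in these ratios, only their change between groups can be read.

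Il18bp, the soluble trap for interleukin-18, went the other way from its ligand without passing the test. It had 5.83, 4.60 and 4.15 scaled CPM in controls and 5.36, 5.86 and 5.92 in MNP samples, with control 1 inside the MNP range. The log2 fold change was 0.23 ± 0.18 SE (95% interval -0.16 to 0.62, edgeR adjusted p = 0.419). The count ratio of Il18bp to Il18 was 1.30, 0.891 and 0.760 in controls and 1.66, 2.55 and 1.85 in MNP samples. All MNP ratios were above all control ratios, by 2.06-fold on average (exact two-sided permutation p = 0.1, the smallest possible here, adjusted p = 0.2 over 4 ratios).

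**Figure D3:**
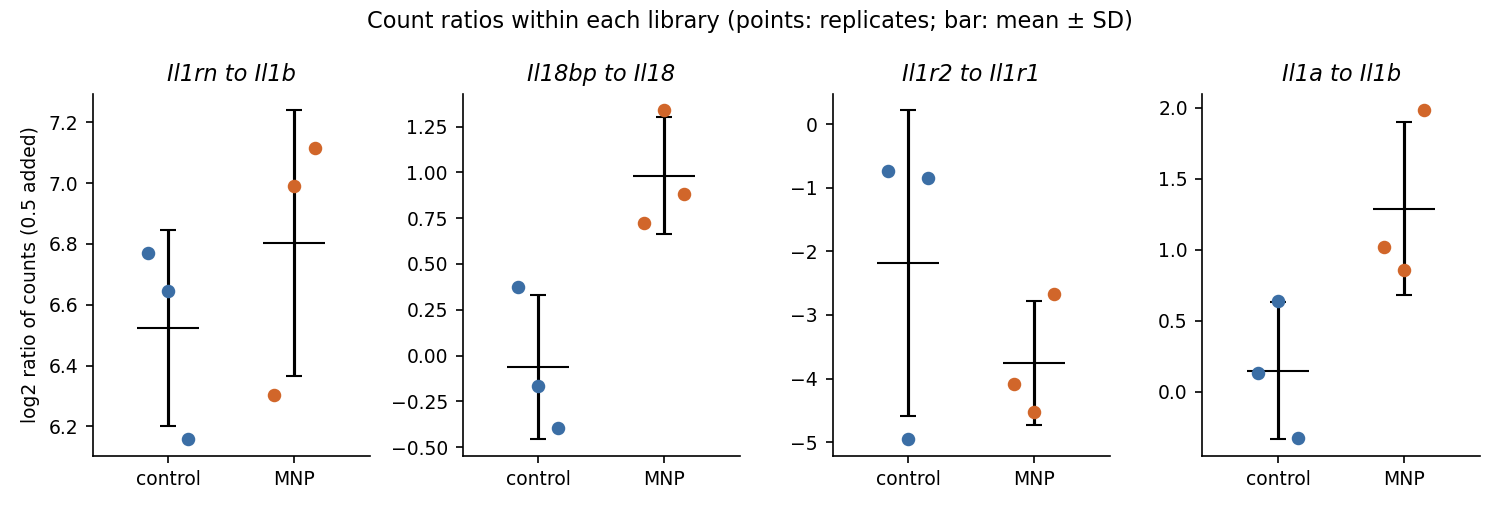
Log2 of the count ratio of 2 members within each library, with 0.5 added to each count (y axis), for 4 pairs of genes in control and MNP libraries (points), with the mean ± SD as a bar. The MNP points lie above all control points for Il18bp to Il18 and for Il1a to Il1b, and the groups overlap for Il1rn to Il1b and Il1r2 to Il1r1.

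Of the receptor chains, the shared accessory chain Il1rap was the one expressed well above the counting limit. It had 12.2, 14.9 and 14.6 scaled CPM in controls and 12.4, 14.4 and 10.8 in MNP samples, and the groups overlapped. Its log2 fold change was -0.15 ± 0.13 SE (95% interval -0.43 to 0.13, edgeR adjusted p = 0.486). The interval holds no decrease larger than 1.35-fold.

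Il1r1, the signalling receptor, was near the counting limit in both groups. Its deposited counts were 12, 15 and 4 in controls and 8, 11 and 9 in MNP samples. Control 3 was lowest and control 2 highest, with all MNP samples between them. The log2 fold change was -0.08 ± 0.57 SE (95% interval -1.32 to 1.16, edgeR adjusted p = 0.946), an interval that holds both a 2-fold decrease and a 2-fold increase, neither of which was detectable at this depth. Its sign turned in several alternative fits.

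Il1r2, the decoy receptor, had 7, 0 and 2 counts in controls and 0, 0 and 1 in MNP samples. Of the 9 control counts, 7 came from control 1, the library with a count for the most genes. Pooled over each group, the level was 0.133 CPM in controls and 0.0157 CPM in MNP samples, a ratio of 0.118 with an exact 95% interval of 0.00268 to 0.848. That interval covers counting error only and not the spread between samples. The count ratio of Il1r2 to Il1r1, with 0.5 added to each count, overlapped between groups (exact two-sided permutation p = 0.4, adjusted p = 0.4 over 4 ratios).

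Some markers of other cell types were called and others were not. Among all tested genes 8.35% were lower and 9.11% higher. Of 11 tested neutrophil markers, 6 were lower and 1 higher. The summed level of the list ran from 269.8 to 362 scaled CPM without MNP and from 243 to 274 with MNP, so the ranges overlapped. Ly6g, which defines neutrophils in mice, stood at 0.0145 and 0.0318 CPM. Retnlg, the neutrophil transcript with the largest fall on the list, went from 2.71 ± 0.657 to 0.590 ± 0.345 scaled CPM (SD, n = 3). The 1 called higher, Mmp8, went from 53.5 ± 6.93 to 83.1 ± 6.76 scaled CPM, and 4 of the tested neutrophil markers did not pass. Of 6 tested dendritic cell markers, 2 were lower, Siglech and Dpp4, and the other 4 did not pass. Siglech had 34, 67 and 20 counts in controls and 8, 10 and 5 in MNP samples. Dpp4 had 28, 44 and 31 in controls and 6, 4 and 3 in MNP samples. The control libraries alone were enough for both to pass the filter. The summed level of all 9 markers on the dendritic cell list was 6.06 to 9.86 scaled CPM without MNP and 2.58 to 4.63 with MNP. On the endothelial list, 1 of 3 tested markers was lower (Kdr, 1.38-fold). On the erythroid and megakaryocyte list, 1 of 2 tested markers was lower (Itga2b, 4.84-fold). The B cell and stromal lists had 1 tested marker each, and neither passed. The part of any of these cells in the decreases of Il1b, Il18 and Il1rn was not tested.

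For each member that fell, the genes nearest in pattern over the 6 libraries were taken by distance on centred log2 CPM. Nearest to Il1rn were Fcgrt, which encodes the neonatal Fc receptor (distance 0.129), Ms4a6b (0.154) and the predicted gene Gm6377 (0.164). Fcgrt went from 26.0 to 11.8 scaled CPM. Nearest to Il18 were the chemerin receptor Cmklr1 (0.245), Cnrip1 (0.247) and Clstn1 (0.253). Nearest to Il1b were the heparan sulfate sulfotransferase Hs3st3b1 (0.312), Cand2 (0.424) and Ston1 (0.495). With 6 libraries in 2 groups, a small distance mainly shows a like fold change.

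Most of the wider family lay near or below the counting limit, and 3 further genes rose (9.11% of all tested genes were called higher). Of 13 other ligands and receptors of the family, 2 had no count in any library and 4 passed the filter. Il36g, an agonist of the interleukin-36 receptor, had 10, 23 and 5 counts in controls and 65, 76 and 64 in MNP samples. It was 5.65-fold higher (log2 fold change 2.50 ± 0.43 SE, edgeR adjusted p = 0.00124), from a control level of 0.563 ± 0.400 scaled CPM (SD, n = 3) to 3.21 ± 0.193. The MNP libraries alone were enough for Il36g to pass the filter. Il1rl2, the interleukin-36 receptor, named after its values were seen, had 3.97, 3.21 and 4.15 scaled CPM in controls and 4.92, 5.36 and 6.45 in MNP samples but did not pass (log2 0.56 ± 0.19 SE, edgeR adjusted p = 0.0633).

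Il1rl1, the receptor for interleukin-33, had 5.64, 7.90 and 7.24 scaled CPM in controls and 12.6, 12.6 and 14.0 in MNP samples. It was 1.88-fold higher (log2 0.91 ± 0.14 SE, edgeR adjusted p = 0.000523). Its ligand Il33, named after its values were seen, had counts in control 1 only. Mast cells and basophils also carry this receptor. Of 8 markers of these cells, 3 were tested and 1 was called. The growth factor receptor Kit was 1.70-fold higher, from 9.88 to 16.8 scaled CPM (edgeR adjusted p = 0.0012). The other 2 tested, Hdc and Gata2, had lower estimates but did not pass. Hdc went from 1.45 to 0.644 scaled CPM, with every MNP library below every control (edgeR adjusted p = 0.0854). Gata2 went from 1.59 to 0.789 scaled CPM, with overlapping groups (edgeR adjusted p = 0.182). The defining transcripts were untested, with Cpa3 at 0.413 scaled CPM in controls and 0.203 in MNP samples and Mcpt8 at 0.0434 and 0.124. The 8 markers summed to 12.2 to 15.9 scaled CPM without MNP and 18.0 to 21.2 with MNP, of which Kit made up most. The part of such cells in the rise of Il1rl1 was not tested.

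Il18rap, the accessory chain of the interleukin-18 receptor, had 3.49, 3.04 and 3.30 scaled CPM in controls and 5.41, 7.43 and 6.40 in MNP samples. It was 1.96-fold higher (log2 0.97 ± 0.19 SE, edgeR adjusted p = 0.00282). The ligand-binding chain Il18r1, also named after its values were seen, was at 0.478, 0.304 and 0.169 scaled CPM in controls and 0.0966, 0 and 0.0478 in MNP samples, too few counts to be tested. T and natural killer cells carry both chains. Of 8 markers of T, natural killer and innate lymphoid cells, 3 (Cd3e, Ncr1 and Gzma) had no count in any library and 2 were tested. The cytokine receptor gene Il7r was 1.23-fold higher, from 399.5 to 493.5 scaled CPM (edgeR adjusted p = 0.00125), and Klrb1c, with 55 and 53 counts in the groups, did not pass. Cd3d had 9 counts in controls and 3 in MNP samples. The 8 markers summed to 393.5 to 414 scaled CPM without MNP and 485.7 to 501 with MNP, of which Il7r made up most. The part of such cells in the rise of Il18rap was not tested. RefSeq lists these receptor genes side by side on chromosome 1 in the order Il1r2, Il1r1, Il1rl2, Il1rl1, Il18r1 and Il18rap. The 2 called genes of this run, Il1rl1 and Il18rap, rose and flank the untested Il18r1. Il18r1 had only 10, 7 and 4 counts in controls and 2, 0 and 1 in MNP samples. The MNP libraries also held a count for fewer genes than any control.

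Genes that process and release the cytokines moved in both directions. Of 20 tested, 5 were higher and 6 lower, beside 9.11% higher and 8.35% lower among all tested genes, and the median log2 fold change was -0.06 against -0.01 over all tested genes. Panx1, a membrane channel that releases ATP, rose 3.94-fold, from 15.0 ± 1.12 to 59.2 ± 7.03 scaled CPM (SD, n = 3). The inflammasome sensor Nlrp1b rose 1.86-fold and the pore-forming gasdermin Gsdme 1.53-fold. Nlrp1b has related copies and overlaps the pseudogene Nlrp1c-ps, also called higher, so its share is uncertain. The related gene Nlrp1a, named after its values were seen, had 20.7 and 20.8 scaled CPM and did not pass (edgeR adjusted p = 0.973). Casp4, which encodes the caspase that senses cytosolic lipopolysaccharide, fell 2.53-fold, from 28.3 ± 4.52 to 11.2 ± 0.530 scaled CPM. The sensor Mefv fell 1.67-fold and the ATP-gated channel P2rx7, which triggers interleukin-1 beta release, 1.45-fold.

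Core genes of interleukin-1 beta cleavage were named after their values were seen. The genes above were picked as the largest called changes of this list, so the sizes of change are not compared. Nlrp3, the inflammasome sensor, fell 1.28-fold from 60.2 ± 2.83 to 47.0 ± 0.665 scaled CPM (SD, n = 3; edgeR adjusted p = 0.00239). Casp1, the caspase that cuts the precursor, had 43.9 ± 3.41 and 38.2 ± 2.89 scaled CPM and did not pass (edgeR adjusted p = 0.133). The adaptor Pycard, at 59.1 ± 1.36 and 56.2 ± 2.89, did not pass either (edgeR adjusted p = 0.504).

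Signalling below the receptor was called at about the background rate, 3 of 21 tested genes (14.3% against 17.5%), and the median log2 fold change was 0.01. The kinase Irak1 rose 1.23-fold and the ubiquitin ligase Peli1 fell 1.18-fold; the Peli1 call was lost when any single library was left out, with adjusted p up to 0.144. The scaffold Ikbkg was 1.38-fold higher, but it overlaps G6pdx, which rose 1.78-fold from 268 to 478 scaled CPM. Ikbkg also overlaps Fam3a, which did not pass (edgeR adjusted p = 0.728). Without a stated strand setting, reads in the shared stretches cannot be told apart. The adaptor Myd88, named after its values were seen, had 39.1 ± 0.948 and 34.2 ± 2.07 scaled CPM (SD, n = 3) and did not pass (edgeR adjusted p = 0.107).

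Among transcripts that interleukin-1 signalling can induce, 9 of 17 tested genes fell and the other 8 did not pass, beside 8.35% lower among all tested genes. The median log2 fold change was -0.43, against -0.01 over all tested genes. Ptgs2, named after its values were seen, was 1.63-fold higher but did not pass (edgeR adjusted p = 0.0632). In the fits without a filter, with the filter of 50 counts or with the replicate block, 1 gene of this list was called higher. The neutrophil chemoattractant Cxcl2 fell 2.59-fold, from 5.44 ± 1.58 to 2.11 ± 0.584 scaled CPM (SD, n = 3). The monocyte chemoattractant Ccl2 fell 1.85-fold, from 124 ± 28.0 to 67.4 ± 3.97. The iron-binding lipocalin Lcn2 was 1.79-fold lower (edgeR adjusted p = 0.0275), but its groups overlapped, with MNP sample 3 above control 1, and the call was lost in 4 fits that left out 1 library (without control 2, control 3, MNP sample 1 or MNP sample 2; adjusted p up to 0.145). Many other signals induce these genes. Of the cytokines Tnf and Il6, named after their values were seen, Tnf, at 29.8 ± 3.70 and 27.3 ± 2.73 scaled CPM, did not pass (edgeR adjusted p = 0.459), and Il6 had counts in MNP sample 2 only.

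**Figure D4:**
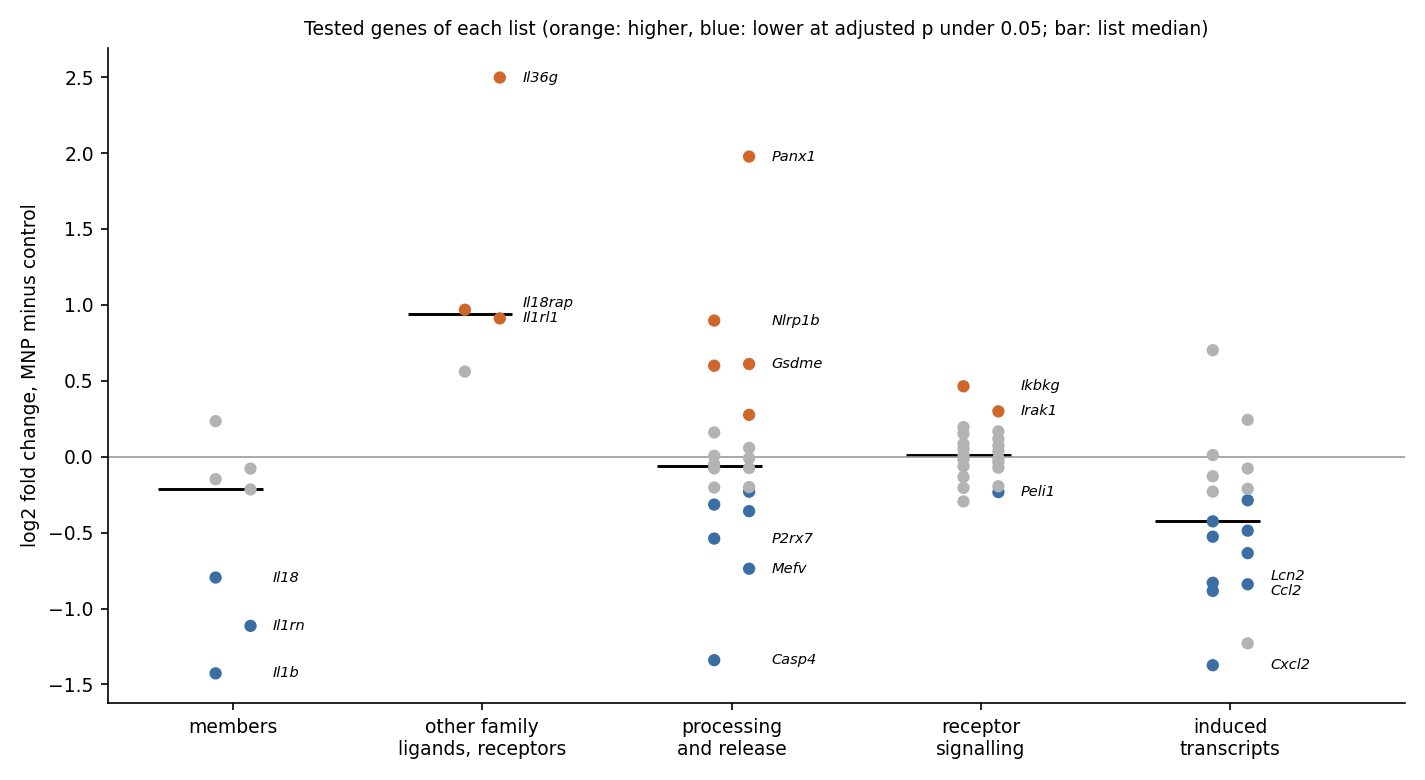
Log2 fold change of MNP minus control (y axis) for each tested gene of the 8 members and of 4 related lists (x axis), orange where higher and blue where lower at an edgeR adjusted p under 0.05, with the list median as a bar. The medians run from -0.43 for induced transcripts to 0.94 for the 4 tested genes among other ligands and receptors, and processing genes spread from -1.34 (Casp4) to 1.98 (Panx1).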

How the data were processed

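Each library has its own deposited table, in which the authors give a whole count for every gene symbol. The submitters' processing notes name fastp, STAR, Salmon and GATK beside the build GRCm39, without versions or the step each served. Which annotation and strand setting were used, whether molecular identifiers were collapsed and whether estimates from Salmon were rounded is not given in the sources used here. Per the labels, the library kit was CORALL RNA-seq V2.

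Sample titles gave the group and the replicate number. Replicate pairs differed beyond sampling noise (chi-square per degree of freedom 6.65 to 17.6). Counts were fitted with edgeR 4.0.16 in R 4.3.3 (TMM factors, default filter with a minimum count of 10, quasi-likelihood F test, Benjamini-Hochberg adjustment over 12893 genes), and a gene was called at an adjusted p under 0.05. A standard error is the size of the log2 fold change divided by the root of F, and 95% intervals use the degrees of freedom of the fit. The 4 ratios had 0.5 added to each count for testing and for their fold changes between groups. Ratios of single libraries are printed without it unless said. Alternatives used other scalings, filters, DESeq2 1.42.0, limma 3.58.1 (voom), a replicate block, a stricter threshold, fewer genes and omission of each library. The steps were tested on simulated data.

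The members and gene lists were chosen with earlier results of these data known. Named were all members, up to 3 called genes in each direction from each other list, and the 3 genes nearest each called member; cell type markers, genes that overlap a named gene and those said to be so where named were picked after their values were seen. Lengths came from GENCODE M21 and promoters from RefSeq GRCm38.p6, matched by symbol or RefSeq synonym. Intervals of counts cover counting error only.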

Additional observations from a re-analysis of the deposited data

How the results depend on the processing

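Il1rn kept its direction and call in all 16 alternatives, with log2 fold changes from -1.20 to -1.06. Il18bp and Il1rap kept their direction and stayed uncalled in 16 each. Il1b and Il18 kept their direction throughout; leaving out 1 library gave log2 fold changes of -1.67 to -1.15 for Il1b and -0.87 to -0.65 for Il18, and at an adjusted p under 0.01 neither was called (-1.43 and -0.80). Il1a, not called, ranged from -0.47 to 0.047 when 1 library was left out, turning positive without MNP sample 2. Il1r1, not called, turned positive with limma-voom (0.13) and the replicate block (0.0036), and ranged from -0.47 to 0.25 with 1 library left out. Why it turned was not tested. Il1a, Il1b and Il1r1 did not reach the filter of 50 counts in 3 libraries and have no value there. The 4 ratios kept their direction in all 8 alternatives each.

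Over all genes, 2250 were called, 1272 at an adjusted p under 0.01 and 1471 to 2245 with 1 library left out (1471 without MNP sample 2). With library totals alone, 28.1% of calls were higher in MNP against 52.2% with TMM, and 7 signalling genes were called in place of 3. Same-numbered samples did not vary together (correlations of deviations 0.0867, 0.0282 and -0.0218, and not every sample correlated best with its own number). The replicate block gave 2686 calls and changed no member's call. Depth limits Il1r1 and Il1r2 most.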
